A study of Rattus norvegicus with 8 samples.

Results

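The genes described here are 10 matrix metalloproteinases (Mmp2, Mmp3, Mmp8, Mmp9, Mmp10, Mmp12, Mmp13, Mmp14, Mmp16 and Mmp19), taken by name from the 37209 gene rows of a count table. All 10 have a row, and 8 of them passed the filter on low counts that left 15464 genes for testing. RNA was measured in 4 vein grafts and 4 control jugular veins, all from Sprague Dawley rats (an outbred laboratory strain) and taken 1 week after grafting. In the graft group a vein carried arterial blood between the cuffed stumps of the left common carotid artery, and the jugular vein of the opposite side served as control. No drug, transgene or mutant allele is named for either group. The sources used here do not give the ages of the animals, nor whether tissue of several animals was pooled. The comparison asks which protease transcripts differ between arterialised and undisturbed veins.

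Matrix metalloproteinases are zinc-dependent enzymes that cut collagens, elastin, proteoglycans and other proteins outside the cell. Most are made as inactive precursors, are switched on by other proteases and are held in check by tissue inhibitors (TIMPs). In blood vessels they are known for opening the matrix during remodelling, when smooth muscle cells and leukocytes move through the wall.

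Grafts held more transcripts of 7 of the 8 tested members than control veins, and 0 of the 8 passed as lower. The background is high: of all tested genes 42.3% passed, 21.0% as higher in the grafts and 21.3% as lower. Passing means a Benjamini-Hochberg adjusted p under 0.05 in the quasi-likelihood test of edgeR, and "adjusted p" stands for that value unless another tool is named. Mmp3, Mmp12 and Mmp13 had no control library at the filter's level and passed it through the grafts alone. For these 3 genes a difference was thus built into being tested. Mmp9 reached that level in control 1 alone among the controls and needed the grafts to pass. The count of 7 is no support for a family-wide rise. At an unadjusted p under 0.05 the number lower was also 0, and DESeq2 called 0 lower as well. The members fell into 2 kinds. Mmp2, Mmp14, Mmp16 and Mmp19 were well counted in every control vein and differed by a log2 fold change of 0.46 to 1.81. Mmp3, Mmp9, Mmp12 and Mmp13 had 7 to 21 counts over all 4 controls together and differed by a log2 fold change of 6.73 to 9.79.

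The libraries held 5981520 to 16061189 counts, and control 4 had the fewest. Levels are given in CPM, counts scaled to the library size by TMM factors, and 3 counts correspond to 0.182 to 0.56 CPM, so control values of the rarer members rest on a handful of reads. Where 4 control values follow each other, they belong to controls 1, 2, 3 and 4 in that order. Whether the replicates came from separate animals is not stated for each sample, so the p-values measure the spread between these libraries. Controls 3 and 4 stood apart in their adipocyte markers, whose summed level was 2118.3 and 3276.5 CPM there against 465 and 734 CPM in controls 1 and 2. In the grafts that sum was 127 to 171 CPM, and all 8 adipocyte markers fell, 3 of them (Cidec, Lep and Thrsp) with every graft below the filter's level. The smooth muscle markers summed to 13080.0 to 21663 CPM in the controls and 1815 to 3470.2 CPM in the grafts, and those of endothelium to 3138 to 4880.3 and 1435 to 1772 CPM. Control 1 stood apart in its red blood cell markers, which summed to 9529.6 CPM. In controls 2, 3 and 4 that sum was 1396, 1618 and 1172 CPM, and in the grafts 357 to 1262 CPM. The part of blood in other values of control 1 was not tested. The labels' extraction text names a brain region instead of a vein. Of 9 neuron and glia markers, Neurod6 was at 0 in all libraries, while Snap25, Rbfox3, Slc17a7 and Gad1 had group means of 0.0491 to 0.415 CPM. The control and graft means were 1.98 and 1.21 CPM for Syt1, 1.83 and 1.89 CPM for Gfap and 1.89 and 0.186 CPM for Aqp4, with 7.36 CPM in control 3. Mbp, which Schwann cells of nerves also make, was the best counted of that list, at 331 ± 334 CPM in the controls and 23.3 ± 21.7 CPM (SD, n = 4) in the grafts.

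Of the 10 members, 5 lie in 1 gene cluster on rat chromosome 8. In the GRCr8 assembly the metalloproteinase genes of that cluster follow the order Mmp13, Mmp12, Mmp1b, Mmp3, Mmp1, Mmp10, Mmp8, Mmp27, Mmp20 and Mmp7. RefSeq promoter sequences of build GRCr8 were matched for 5 of the 10 members, these same 5. Not matched were Mmp2, Mmp9, Mmp14, Mmp16 and Mmp19. The 150 bases before the annotated start are shown because 4 neighbours that were nearly silent in the controls share a pair of short motifs there, and the windows of Mmp8 and the neighbour Mmp27 are shown beside them, Mmp8 as the remaining member of the cluster and Mmp27, picked after its values were seen, as a gene that fell. Capitals mark TGAGTCA read on either strand (so also TGACTCA), the letters bound by AP-1 dimers of the Fos and Jun families, and TATAAA on the gene's own strand, the TATA box. All are on the + strand, at chr8:12782679-12782828 for Mmp13, chr8:12866502-12866651 for Mmp12, chr8:12925131-12925280 for Mmp3, chr8:12974557-12974706 for Mmp10, chr8:13008740-13008889 for Mmp8 and chr8:13030602-13030751 for Mmp27.
Mmp13: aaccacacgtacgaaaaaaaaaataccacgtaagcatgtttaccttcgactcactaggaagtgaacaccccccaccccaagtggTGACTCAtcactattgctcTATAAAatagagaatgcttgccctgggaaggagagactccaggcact
Mmp12: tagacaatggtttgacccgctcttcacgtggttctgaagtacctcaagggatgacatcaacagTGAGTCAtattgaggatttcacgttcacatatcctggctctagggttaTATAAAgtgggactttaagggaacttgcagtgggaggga
Mmp3: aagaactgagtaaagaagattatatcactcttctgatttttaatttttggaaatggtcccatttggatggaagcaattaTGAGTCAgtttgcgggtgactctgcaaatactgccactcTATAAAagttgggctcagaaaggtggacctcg
Mmp10: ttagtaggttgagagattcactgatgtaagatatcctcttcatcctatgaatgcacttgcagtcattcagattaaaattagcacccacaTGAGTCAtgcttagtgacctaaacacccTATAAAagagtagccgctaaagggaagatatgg
Mmp8: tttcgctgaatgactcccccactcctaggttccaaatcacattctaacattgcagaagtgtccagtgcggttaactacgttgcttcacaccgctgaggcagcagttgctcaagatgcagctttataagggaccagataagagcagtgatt
Mmp27: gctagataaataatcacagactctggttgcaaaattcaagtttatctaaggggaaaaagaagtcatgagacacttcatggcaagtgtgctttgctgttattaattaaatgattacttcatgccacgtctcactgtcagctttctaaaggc

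The AP-1 letters begin 66 bases before the start in Mmp13, 87 in Mmp12, 71 in Mmp3 and 61 in Mmp10, and in each the TATA letters follow nearer the start. Neither motif occurs in the windows of Mmp8 and Mmp27. Among 33469 RefSeq promoters of the same length, 2.38% hold the AP-1 letters, 5.15% the TATA letters and 0.167% both. Both motifs were found in 6 of the 10 promoters of the cluster, namely those of the 4 members above, Mmp1 and Mmp7. A PEA3 motif, AGGAAG on either strand (so also CTTCCT), was found in 19.3% of all promoters and among these 5 members in Mmp13 alone. The 2 AP-1 spellings are reverse complements, and no capitalised motif overlaps another. These are matches of letters, not measured binding sites. The genes of the cluster belong to 1 family and are not independent draws, and the windows were picked with the motifs already seen. The shares over all promoters are thus no test. Mmp1 has both motifs and no count in any library, and Mmp1b, which has neither, had 1 count in all.

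The membrane-anchored enzymes come first, since Mmp14 (MT1-MMP) cuts collagen at the cell surface and activates the precursor of Mmp2. Mmp14 stood at 379, 385, 313 and 233 CPM in the 4 controls and at 1430.3, 1429, 712 and 1025 CPM in grafts 1 to 4. The groups did not overlap, and the lowest graft, graft 3, was 1.85 times the highest control. Mmp14 rose by 1.81 ± 0.26 log2 units (SE, adjusted p = 0.000539), and it passed with any 1 library left out. Mmp16 (MT3-MMP) is a second membrane-type enzyme that can also activate Mmp2. It stood at 40.5, 29.98, 31.8 and 36.6 CPM in the 4 controls and at 57.4, 61.6, 27.0 and 44.3 CPM in grafts 1 to 4. Graft 3 lay under every control while the other 3 grafts lay above every control, so the groups overlapped. Mmp16 differed by 0.46 ± 0.24 log2 units and did not pass (adjusted p = 0.151). Without graft 3 it passed, at 0.67 ± 0.16 (adjusted p = 0.0134), and it also passed with scaling by library totals only (0.66 ± 0.21, adjusted p = 0.0307).

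**Figure D1:**
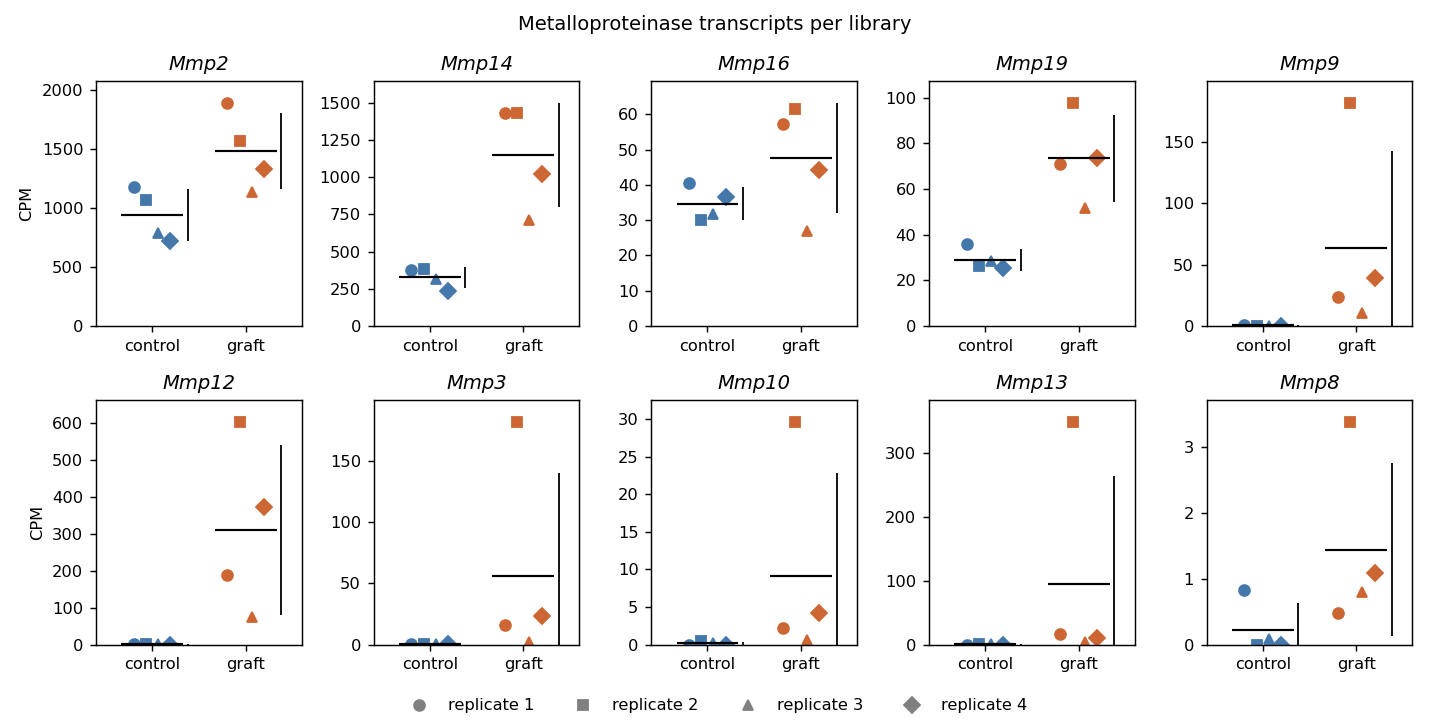
Level in CPM (y axis, linear from 0, a scale of its own for each gene) of the 10 metalloproteinases in 4 control and 4 graft libraries. Marker shapes give the replicate number of the titles, which does not pair the libraries, horizontal lines are group means and vertical lines their SD, drawn down to 0 where it passes 0. The broadly present Mmp2, Mmp14, Mmp16 and Mmp19 are seen in both groups, while Mmp3, Mmp9, Mmp10, Mmp12 and Mmp13 lie near 0 in the controls and are highest in graft 2.

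Mmp2 (gelatinase A) cuts denatured collagens and type IV collagen of basement membranes and is made by many mesenchymal cells. Its level was 1181, 1067, 787 and 721 CPM in the 4 controls and 1889, 1572, 1136 and 1334 CPM in grafts 1 to 4. Graft 3 lay under control 1, so the groups overlapped. Mmp2 rose by 0.66 ± 0.22 log2 units (SE, adjusted p = 0.0356), and the call was lost in 6 of 8 fits with 1 library left out. These were the fits without control 2, control 3, control 4, graft 1, graft 2 or graft 4, with adjusted p up to 0.0965 and log2 fold changes of 0.54 to 0.74. With controls 3 and 4 both left out it stood at 0.40 ± 0.25 (adjusted p = 0.258). Mmp19, a secreted enzyme that cuts basement membrane proteins, went from 35.7, 26.1, 28.3 and 25.4 CPM in the 4 controls to 70.8, 97.6, 51.5 and 73.7 CPM in grafts 1 to 4. The groups did not overlap. Mmp19 rose by 1.34 ± 0.20 log2 units (SE, adjusted p = 0.000671) and passed with any 1 library left out.

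Mmp9 (gelatinase B) is released by neutrophils, macrophages and osteoclasts. Its counts were 13, 3, 4 and 1 in the 4 controls and 387, 2419, 131 and 604 in grafts 1 to 4. As levels this was 0.187 to 0.974 CPM in the controls and 23.5, 182, 10.5 and 38.8 CPM in grafts 1 to 4, with no overlap. Graft 2 held most of the signal, and even graft 3, the lowest, was 10.8 times the highest control. Mmp9 rose by 6.96 ± 1.08 log2 units (SE, adjusted p = 0.000837). Without graft 2 the value was 5.59 ± 0.59 (adjusted p = 0.000266) and the ratio of mean levels 54.1 in place of 142, and without control 1, which held 13 of its control counts, it was 7.72 ± 1.41 (adjusted p = 0.00245). Limma voom did not call it (6.28, adjusted p = 0.0505).

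Mmp12, the macrophage elastase, had 3, 2, 9 and 0 counts in the 4 controls and 3115, 8016, 930 and 5793 counts in grafts 1 to 4. Levels in grafts 1 to 4 were 189, 602, 74.4 and 372 CPM. Even the lowest graft was 98.8 times the highest control. Mmp12 rose by 9.79 ± 0.88 log2 units (SE, adjusted p = 4.9e-05). Without control 3, which held 9 of the 14 control counts, the log2 fold change was 10.73 ± 1.09 (adjusted p = 0.000265), a fold that moves because so few control reads stand under it. In bulk tissue more cells that make a transcript and more of it per cell cannot be told apart. Of 11 tested macrophage markers 9 rose and 0 fell (0 at an unadjusted p under 0.05; none was at 0 in all libraries), and the 12 in the table summed to 218 to 368 CPM in the controls and to 1021, 1508, 1333 and 1676 CPM in grafts 1 to 4. Graft 3 was thus lowest for Mmp12 and not for the summed macrophage markers, which were lowest in graft 1. Among the tested markers only Trem2 was lowest in graft 3 (34.2 CPM). The part of macrophage number in the rise of Mmp12 was not tested.

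The stromelysins Mmp3 and Mmp10 are closely related secreted enzymes that cut proteoglycans and fibronectin and activate other metalloproteinase precursors. Reads of such relatives may be assigned to either gene, which was not tested here, so both counts are given as uncertain. Mmp3 had 8, 8, 3 and 2 counts in the 4 controls and 267, 2417, 27 and 366 in grafts 1 to 4. Levels in grafts 1 to 4 were 16.2, 182, 2.16 and 23.5 CPM, against 0.251 to 0.797 CPM in the controls. The groups did not overlap, but graft 2 was 84.1 times graft 3. Mmp3 rose by 6.73 ± 1.39 log2 units (SE, adjusted p = 0.00391). Without graft 2 it passed at 4.74 ± 0.78 (adjusted p = 0.00213), and the ratio of mean levels was 27.6 in place of 111. The call was lost with controls 3 and 4 left out (6.33, adjusted p = 0.0509) and with limma voom (5.26, adjusted p = 0.169).

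Mmp10 did not pass the filter on low counts. Its counts were 0, 5, 2 and 0 in the 4 controls and 36, 395, 7 and 65 in grafts 1 to 4. The order of the grafts was the same as for Mmp3, with graft 2 highest, then graft 4, graft 1 and graft 3. Mean levels were 0.166 ± 0.235 CPM in the controls and 9.15 ± 13.8 CPM (SD, n = 4) in the grafts, and no control reached the lowest graft. A 2-sided exact permutation test of log2(CPM + 0.5) gave p = 0.0286, the smallest that 4 against 4 allows, and 0.0571 adjusted over the 2 members tested this way (graft minus control 2.81; higher in 4 of 4 grafts than in any control). In an edgeR fit with no filter Mmp10 differed by 5.65 ± 1.30 log2 units (adjusted p = 0.0068). The filter was on in the fits with libraries left out, and Mmp10 passed it there through the grafts alone. With controls 3 and 4 left out it stood at 5.32 ± 2.04 and did not pass (adjusted p = 0.0881), and without control 2 at 6.94 ± 1.88 (adjusted p = 0.0211). In these fits a difference was built into being tested, so their values are no support for a rise.

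Of the collagenases, which cut native fibrillar collagen, Mmp13 is the form known from cartilage and bone, and Mmp8 the form stored in neutrophil granules. Mmp13 had 0, 2, 5 and 0 counts in the 4 controls and 267, 4643, 43 and 158 in grafts 1 to 4. Its level in grafts 1 to 4 was 16.2, 349, 3.44 and 10.1 CPM, and graft 2 held 92.1% of the graft sum. The groups did not overlap, and the lowest graft was 8.22 times the highest control. Mmp13 rose by 9.02 ± 1.99 log2 units (SE, adjusted p = 0.00557). Without graft 2 it was 5.79 ± 0.83 (adjusted p = 0.00115), with a ratio of mean levels of 64.3 in place of 613. Without control 3 it was 10.21 ± 2.69 (adjusted p = 0.0184). The call was lost with controls 3 and 4 left out (9.96, adjusted p = 0.0561) and with limma voom (7.22, adjusted p = 0.159). Of 7 tested cartilage and bone markers 5 rose and 0 fell (0 at an unadjusted p under 0.05; none was at 0 in all libraries), and 1 of the 5, Bglap, had every control below the filter's level. The 8 in the table summed to 14.3 to 31.0 CPM in the controls and 811, 529, 245 and 289 CPM in grafts 1 to 4. Most of that sum was Acan, at 671, 397, 127 and 188 CPM in grafts 1 to 4. The sum was thus highest in graft 1 and Mmp13 in graft 2. Single markers differed: Acan, Alpl and Sp7 were highest in graft 1 and Sox9 in graft 4. Runx2 (96.6 CPM) and Ibsp (5.86 CPM) were highest in graft 2, and Bglap and Col2a1 in graft 3. The part of such cells in the rise was not tested.

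Mmp8 was the rarest member in the grafts and also missed the filter. It had 11, 0, 1 and 0 counts in the 4 controls and 8, 45, 10 and 17 in grafts 1 to 4. Control 1, at 0.824 CPM, lay above grafts 1 and 3, so the groups overlapped. The exact 2-sided permutation test gave p = 0.0857 (also 0.0857 adjusted; graft minus control 1.34 on the log2(CPM + 0.5) scale, n = 4 and 4). With no filter edgeR gave 2.40 ± 0.99 (adjusted p = 0.0947). Without control 1, and with the filter on, edgeR gave 4.96 ± 1.21 (adjusted p = 0.00946). The controls left in that fit held 0 or 1 count each, so Mmp8 passed the filter there through the grafts alone. A difference was thus built into being tested, and this value is no support for a rise. Of 6 tested neutrophil markers 3 rose, 2 fell and 1 did not pass, and none of the 10 in the table was at 0 in all libraries. S100a9, which rose, had every control below the filter's level, and Mpo, which fell, every graft. Their summed level was 29.5 to 54.3 CPM in the controls and 36.9, 112, 74.9 and 31.5 CPM in grafts 1 to 4. Graft 2 was thus highest for Mmp8, Mmp9 and the summed neutrophil markers, but the other grafts did not keep 1 order. Graft 4 was next highest for Mmp8 and Mmp9 and had the lowest marker sum, at 31.5 CPM. Graft 3 was next highest in that sum, at 74.9 CPM, and lowest for Mmp9. Single markers differed: S100a8, S100a9, Csf3r (56.7 CPM), Cxcr2 and Ltf were highest in graft 2. Mpo, Elane, Camp, Ngp and Ceacam1 were highest in other grafts, and Ceacam1 was lowest in graft 2 (12.4 CPM). The part of neutrophils in the values of Mmp8 and Mmp9 was not tested.

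**Figure D2:**
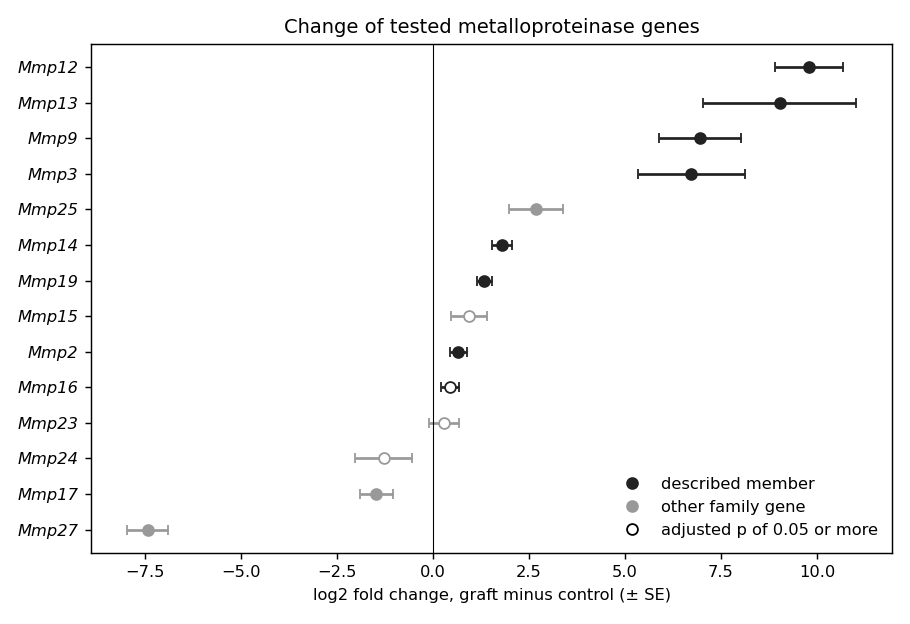
Log2 fold change, graft minus control, with its SE (x axis) for the 14 metalloproteinase genes that passed the filter, sorted by size. Black points are the 8 described members tested and grey points the 6 other tested genes of the family, and open points did not pass. Mmp12 stands at 9.79 at the upper end and Mmp27, at -7.42, at the lower.

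The grafts differed among themselves far more for the members that were rare in controls than for the others. The coefficient of variation over the 4 grafts was 21.9%, 30.3%, 32.7% and 25.7% for Mmp2, Mmp14, Mmp16 and Mmp19. It was 74.5% for Mmp12, 125% for Mmp9, 151% for Mmp3 and 179% for Mmp13, where the median over the 3250 genes that passed as higher was 19.2%. Graft 2 was the highest graft for 8 of the 10 members, all but Mmp2 and Mmp14, and graft 3 the lowest for 9, all but Mmp8. Of all tested genes, 20.1% were highest in graft 2 and 32.2% lowest in graft 3. The genes that passed as higher went another way, with 47.2% of them highest in graft 3 and 21.3% lowest there. On the scale of library totals, without TMM factors, graft 2 was highest for 9 and graft 3 lowest for 9 of the 10 members. The members share their libraries, so these counts describe 4 grafts and not 10 independent measurements. Summed over the 10 members, the share of all counts was 0.091% to 0.153% in the controls and 0.379%, 0.47%, 0.24% and 0.313% in grafts 1 to 4. The groups did not overlap for Mmp9, Mmp14 and Mmp19, 3 of the 5 tested members whose filter result did not rest on the grafts alone. Of all tested genes 40.6% did not overlap. Mmp9 had only control 1 at the filter's level and needed the grafts to pass, so its lack of overlap carries little weight. For Mmp3, Mmp12 and Mmp13 the lack of overlap was fixed by the filter.

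**Figure D3:**
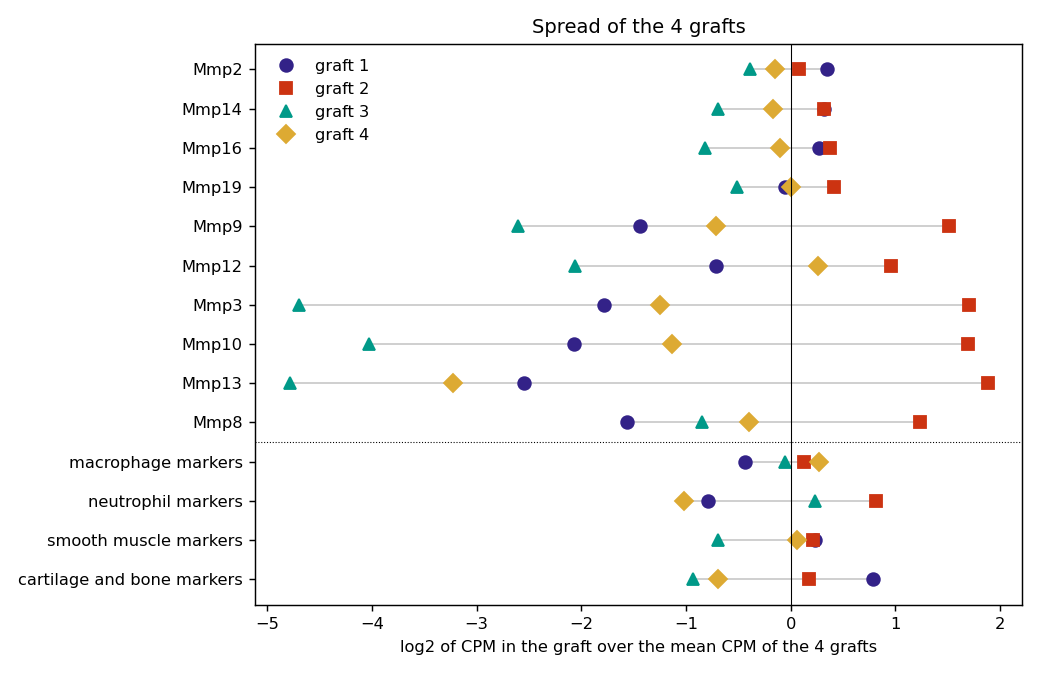
Log2 of the level in each graft over the mean of the 4 grafts (x axis) for the 10 metalloproteinases and for the summed levels of 4 marker lists (under the dotted line). Each point is 1 library and grey lines span the 4 grafts. The points of Mmp3, Mmp9, Mmp10 and Mmp13 spread widely between graft 3 and graft 2, while those of Mmp2, Mmp14 and Mmp19 and of the macrophage markers lie close together.

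For each tested member the gene with the most similar pattern was taken as that with the smallest root mean square difference of mean-centred log2 CPM over the 8 libraries, among 10911 candidates. This distance is not scaled to the size of a gene's changes, so members that change more tend to lie farther from any gene. The broadly present members had the smaller distances. Fbxo10, a ubiquitin ligase subunit, lay 0.12 from Mmp2, Bcat1, a branched-chain aminotransferase, 0.14 from Mmp19, Igf2r, which sorts lysosomal enzymes, 0.17 from Mmp16 and Myo7a, a myosin motor, 0.21 from Mmp14. The members with wide graft spread had larger distances, which the measure alone can bring, so no conclusion is drawn from this contrast. Atp6v0d2, a proton pump subunit known from osteoclasts and macrophages, lay 0.71 from Mmp9, and Tnn, the matrix protein tenascin-N, 0.78 from Mmp12. Zfp334, a zinc finger protein, lay 1.22 from Mmp3 and Cxcl6, a chemokine that attracts neutrophils, 1.41 from Mmp13. Cxcl6 stood at 3.94, 93.6, 11.5 and 5.91 CPM in grafts 1 to 4, with graft 2 highest as for Mmp13. For both Mmp3 and Mmp13 another member, Mmp9, was nearer still, at 0.91 and 1.13.

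Of 13 other metalloproteinase genes, 6 were tested, of which 1 rose, 2 fell and 3 did not pass. The largest change was that of Mmp27, a little-studied relative of the stromelysins that lies next to Mmp8 in the cluster. Mmp27 stood at 101, 181, 85.0 and 72.2 CPM in the 4 controls and at 0.728, 0.0751, 0.48 and 1.16 CPM in grafts 1 to 4. The groups were far apart, in the direction opposite to Mmp3, Mmp12 and Mmp13 of the same cluster. Mmp27 fell by 7.42 ± 0.52 log2 units (SE, adjusted p = 2.25e-05) and passed with any 1 library left out. Graft 2 was the lowest graft for Mmp27 and graft 4 the highest, on few counts in each graft. Mmp25, a membrane-anchored enzyme of leukocytes, rose by 2.68 ± 0.69 (adjusted p = 0.0121), from 0.414 ± 0.44 to 2.95 ± 1.15 CPM. Mmp17, named here after its values were seen, fell by 1.47 ± 0.43 log2 units (adjusted p = 0.0217) with overlapping groups. It did not pass without control 1, graft 2 or graft 4 (adjusted p up to 0.0593) or with library totals alone (0.0527). Mmp7 (matrilysin), at the far end of the cluster, had 1 count in the controls and 19, 48, 7 and 9 in grafts 1 to 4, which is 58.4-fold higher with a 95% counting interval of 10.2 to 2333, and was below the filter.

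**Figure D4:**
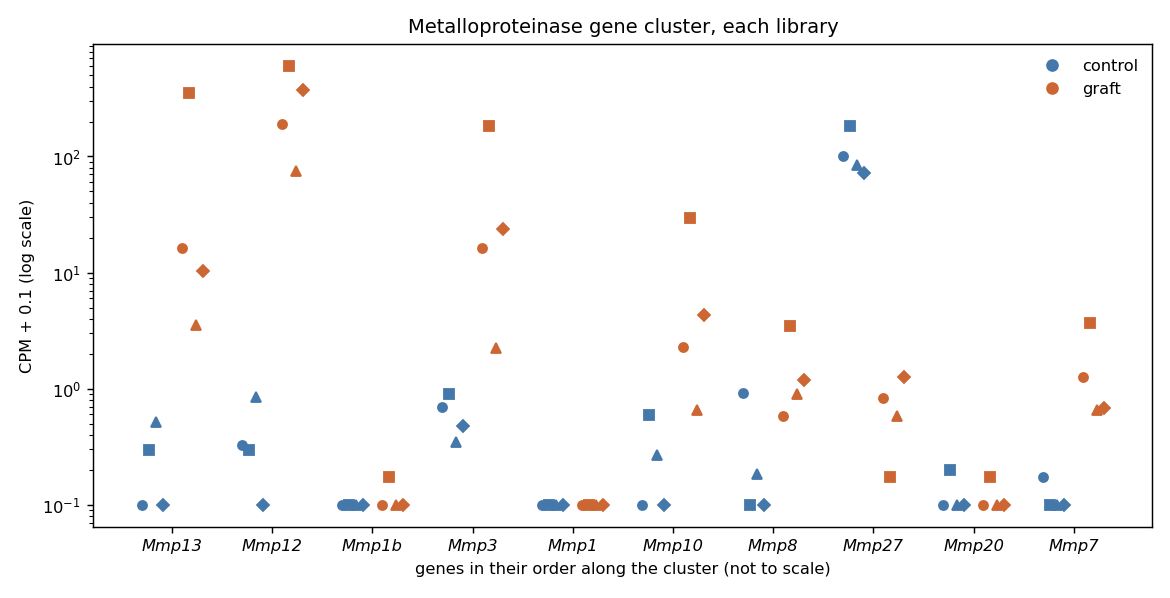
Level of each metalloproteinase gene of the chromosome 8 cluster in every library (y axis, CPM + 0.1, log scale), in gene order (x axis, not to scale). Blue markers are the 4 controls and orange markers the 4 grafts, with shapes for the replicate number, and points at 0.1 have no counts. Mmp13, Mmp12, Mmp3 and Mmp10 lie higher in the grafts, Mmp27 lies higher in the controls, and Mmp1 has no counts.

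Around the proteases, 5 further lists give the context, and are described by counts beside the background of 21.0% higher and 21.3% lower and an all-gene median of 0.01 log2 units. Of 6 inhibitors, 2 rose, 3 fell and 1 did not pass (median -0.33). A2m, one of those that rose, had every control below the filter's level, so like Mmp3 it had to be higher in the grafts to be tested. Timp3, the inhibitor bound to the matrix and the best counted of this list, fell by 1.53 ± 0.22 log2 units (SE, adjusted p = 0.000602) from 871 ± 157 to 303 ± 85.9 CPM (SD, n = 4). Timp4 fell by 2.51 ± 0.33 (adjusted p = 0.000335), from 19.5, 29.0, 36.2 and 61.6 CPM in the 4 controls to 5.18 to 7.00 CPM in the grafts. In the controls it followed the order of the summed adipocyte markers, and the part of fat in this value was not tested. A2m, a plasma protein that traps proteases, held 1 count over all controls against 136 in the grafts, 95.7-fold higher with a 95% counting interval of 16.9 to 3805.

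Of 15 tested activators and surface partners, 9 rose, 1 fell and 5 did not pass (median 1.23). Plat, the tissue plasminogen activator, rose by 1.31 ± 0.15 (SE; adjusted p = 0.000184) from 80.95 ± 7.59 to 200.5 ± 36.6 CPM. Plg itself, mainly a liver product, went from 1.62 ± 0.879 to 0.329 ± 0.112 CPM and fell by 2.28 ± 0.49 log2 units (adjusted p = 0.0047), with every graft below the filter's level. Lrp1, an endocytic receptor that clears several metalloproteinases, rose by 0.84 ± 0.19 (adjusted p = 0.0065). With controls 3 and 4 left out it did not pass (0.61, adjusted p = 0.0705). Of 9 tested inducing cytokines and receptors, 5 rose, 1 fell and 3 did not pass (median 1.07). Tgfb1 rose by 1.33 ± 0.12 (adjusted p = 5.01e-05) from 41.7 ± 4.68 to 105 ± 9.35 CPM, and Il6st, the gp130 receptor chain, fell by 0.92 ± 0.15 log2 units (adjusted p = 0.0011).

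Of 14 tested transcription factors, 5 rose, 3 fell and 6 did not pass (median 0.29). Runx2, a bone cell factor that binds the Mmp13 promoter in other systems, rose by 3.16 ± 0.20 (SE; adjusted p = 2e-05) from 9.17 ± 2.16 to 83.4 ± 13.1 CPM. Among AP-1 genes, Fosb fell by 2.84 ± 0.63 log2 units (adjusted p = 0.00573), and without control 1, the highest control at 57.4 CPM, by 1.86 ± 0.37 (adjusted p = 0.0039). Fos, Jun, Junb, Jund and Fosl2 did not pass, with log2 fold changes of -0.93, -0.37, 1.11, 0.16 and 0.28. Fosl1, below the filter, had no count in any control and 0.193 to 1.13 CPM in the grafts. Of 13 substrates, 6 rose, 3 fell and 4 did not pass (median 0.51). Acan, the cartilage proteoglycan aggrecan, rose by 9.55 ± 0.74 (adjusted p = 3.11e-05). Col1a2 and Col3a1, chains of fibrillar collagens, fell by 1.12 ± 0.35 and by 0.90 ± 0.31 log2 units (adjusted p = 0.028 and 0.0385). Col1a2 lost its call without control 1, control 2, control 4, graft 2, graft 3 or graft 4 (adjusted p up to 0.0727). Col3a1 lost it in 7 of 8 such fits, all but that without control 3 (up to 0.107), and with controls 3 and 4 left out (0.0768).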

How the data were processed

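The authors deposited whole-number counts per gene for 8 libraries in 1 table, with columns named by sample title. Per the submitters' processing notes, HISAT2 2.0.4 aligned the reads to Rnor_6.0. How reads were counted, with which annotation and whether by strand, the sources used here do not say. Reads of close relatives such as Mmp3 and Mmp10 may have been split or dropped. In GRCr8 no other gene overlaps a member. The test ran in R 4.3.3 and edgeR 4.0.16: filterByExpr (minimum count 10), TMM scaling, glmQLFit and glmQLFTest over 15464 genes, Benjamini-Hochberg adjustment over all of them, threshold 0.05. The SE is the absolute log2 fold change over the square root of F. Members below the filter were tested with SciPy 1.17.1 by exact permutation with a pseudocount of 0.5 CPM. Counting intervals are exact binomial (95%) and cover counting error only. Named genes are the members and, for each list, the called gene with the smallest p in each direction and the best counted gene. Nearest patterns used a prior count of 2 and candidates with a mean of 5 CPM or more in either group. The procedure was tested on simulated data, which left out genes as rare in the controls as Mmp3, Mmp9, Mmp12 and Mmp13. Alternatives were DESeq2 1.42.0, limma 3.58.1 voom, other scalings, no filter, thinned counts, a replicate block and left-out libraries. The members and lists were chosen with earlier results of these data known. Libraries within a group all differed beyond sampling noise, and the title numbers were not taken as pairs, since source names number the grafts differently.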

Additional observations from a re-analysis of the deposited data

Results flagged for a closer look

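In 4 members graft 2 stood far above the other 3 grafts, with a gap to the next graft larger, as a share of the group's range, than Dixon's limit for 4 values. Mmp13 was at 349 CPM in graft 2 and at 16.2 CPM in the next highest graft. Mmp3 was at 182 CPM against 23.5 CPM, Mmp9 at 182 CPM against 38.8 CPM and Mmp10 at 29.7 CPM against 4.17 CPM. On the log2(CPM + 0.5) scale none of these 4 gaps passed that limit (0.479 to 0.678 of the range), so the distance belongs to the linear scale. Chance flags about 1 in 20 groups of 4 (5%). Over all tested genes 6.82% had a graft beyond this limit at either end, high or low, and 0.453% had graft 2 as the high one. Among the controls, Mmp8 was far higher in control 1, at 0.824 CPM (11 counts), than in the others, which held 0 or 1 count, and this gap also passed on the log2 scale (0.841). Of all tested genes 7.18% had a control beyond the limit on the linear scale at either end, high or low.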

How the results depend on the processing

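Of the 8 tested members, 7 passed as higher and 0 as lower. Of all tested genes 21.0% passed as higher and 21.3% as lower. Of the 7 members, Mmp3, Mmp12 and Mmp13 passed the filter through the grafts alone. Limma voom called 4 higher (Mmp2, Mmp12, Mmp14 and Mmp19), and 4 of 10 tested passed with controls 3 and 4 left out (Mmp9, Mmp12, Mmp14 and Mmp19); the cause was not tested. DESeq2 called 6 and gave no p for Mmp13, no filter gave 8 of 10, library totals alone 8, and upper-quartile factors and thinned counts 7 each. With 1 library left out the number ran from 6 to 9, with 8 to 10 members tested. Where Mmp8 or Mmp10 was among those tested, it had passed the filter through the grafts alone. The number of all genes called ran from 5588 to 7840, against 6538 in all libraries. No member changed direction under any of these settings, and 0 passed as lower in each. With the replicate block 7 members and 5902 genes passed; same-numbered libraries deviated together with r of -0.0746, 0.18, 0.0712 and 0.0505 across genes, so the numbers were not taken as pairs. Library totals alone gave 67.8% of calls as higher in place of 49.7% and shifted the all-gene median to 0.23 from 0.01 log2 units. Mmp8 and Mmp10 were below the filter, with 12 and 7 counts over the controls and 80 and 503 over the grafts; whether more depth would change their values was not tested.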
